A study of Mus musculus with 12 samples.

Results

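The secreted or membrane-bound regulators of matrix breakdown described here were followed through a healing mouse burn. They are the matrix metalloproteinases Mmp3, Mmp9 and Mmp11, their tissue inhibitors Timp1, Timp2 and Timp3, and the membrane metalloproteinase Adam8. They were chosen by gene symbol, with earlier results of these data known. Of 7275 probe sets, 8 named exactly 1 of these 7 genes, with 2 probe sets for Mmp9 and 1 for each of the others, against 5599 genes with a probe set of their own in all. RNA of mouse skin was read on 12 Affymetrix arrays. A thermal injury was followed at 4 time points, 0 hours, 2 hours, 3 days and 14 days, each with 3 arrays. Strain, age and genotype are not in the labels, nor is it stated if skin of the 0 hours group had been burnt. The origin of the replicates is not given either, and every p-value here therefore reflects the spread of these arrays alone, part of which may be technical.

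Matrix metalloproteinases are zinc-dependent enzymes, most of them secreted as inactive proenzymes, that cleave collagens, proteoglycans and other matrix proteins. Mmp3 (stromelysin 1) also activates other proenzymes, Mmp9 (gelatinase B) degrades denatured collagen and basement membrane collagen, and Mmp11 (stromelysin 3) is a stromal enzyme processed by furin inside the cell. TIMPs bind the active site of these enzymes; Timp1 is a strongly inducible secreted inhibitor, Timp2 also takes part in proMmp2 activation, and Timp3 is bound to the matrix and inhibits several Adam enzymes. Adam8 is a membrane proteinase of leukocytes and other cells that sheds surface proteins. In wounded skin these genes are known from keratinocytes at the wound edge, fibroblasts and infiltrating leukocytes.

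Promoter windows are shown for 3 genes with unlike time courses, Mmp3, Timp1 and Mmp11, because AP-1 and Ets elements are textbook features of metalloproteinase promoters. They come from RefSeq on GRCm38.p6 and run from 250 bases before to 50 bases after the gene start; 6 of the 7 genes matched the table, and Mmp9 did not. Capitals mark matches on either strand. The AP-1 motif searched was TGAGTCA. The TATA box searched was TATAAA. For the Ets factors it was the core AGGAAG, and for the GC box it was GGGCGG. No 2 matches overlapped in these windows.
Mmp3 (chr9:7445572-7445871, + strand): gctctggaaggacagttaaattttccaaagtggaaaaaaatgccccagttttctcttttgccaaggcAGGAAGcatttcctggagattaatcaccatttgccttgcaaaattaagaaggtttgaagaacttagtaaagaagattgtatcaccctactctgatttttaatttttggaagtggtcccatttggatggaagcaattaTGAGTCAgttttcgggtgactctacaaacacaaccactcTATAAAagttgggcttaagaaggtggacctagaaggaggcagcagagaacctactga
Timp1 (chrX:20869916-20870215, + strand): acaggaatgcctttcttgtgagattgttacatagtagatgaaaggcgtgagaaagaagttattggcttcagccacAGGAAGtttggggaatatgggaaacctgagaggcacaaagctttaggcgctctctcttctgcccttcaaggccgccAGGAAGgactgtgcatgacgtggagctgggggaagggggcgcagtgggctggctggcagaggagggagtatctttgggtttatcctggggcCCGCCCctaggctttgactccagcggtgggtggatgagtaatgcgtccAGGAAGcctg
Mmp11 (chr10:75932453-75932752, - strand): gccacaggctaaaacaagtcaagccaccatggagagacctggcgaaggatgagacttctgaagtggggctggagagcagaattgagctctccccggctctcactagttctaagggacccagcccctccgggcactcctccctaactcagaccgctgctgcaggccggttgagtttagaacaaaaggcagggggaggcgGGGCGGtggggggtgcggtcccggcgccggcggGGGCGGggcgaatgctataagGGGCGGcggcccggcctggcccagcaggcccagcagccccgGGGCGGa
Of the 6 windows, only that of Mmp3 held the AP-1 letters, found in 5.2% of all 32851 promoter windows of this length, and only that of Mmp3 held TATAAA, found in 13.6%. The AP-1 match of Mmp3 began 46 bases before the annotated gene start, and its TATAAA match 7 bases before it. AGGAAG was present in Mmp3, Timp1 and Timp3 (35.4% of all windows), and GGGCGG in Adam8, Mmp11, Timp1, Timp2 and Timp3 (35.7%). Only these exact letters were searched, so that near variants, such as tgagtaa in the Timp1 window, are not marked. The matches describe letters and not binding.

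The deposited signal is a linear intensity. Array medians lay between 448.4 and 496.4, and precision is limited by having 3 arrays per time point. The mean Spearman correlation of 0 hours replicate 3 with the other arrays was 0.851, against 0.886 to 0.920 for the remaining arrays. Skin markers were bright at every time point, with Krt10, a keratin of the upper epidermis, at mean signals of 18465.5 to 24581.4, and skeletal muscle markers were bright as well. The log2 ratio of the 3′ to the 5′ Gapdh control probe set, a measure of RNA quality, had a mean of 1.99 ± 0.29 in the 0 hours group and 1.54 ± 0.46 in the 2 hours group (SD, n = 3 each). It was lower later, with 0.52 ± 0.50 for 3 days and 0.21 ± 0.08 for 14 days. The summed signal of 15 muscle markers was lower at 3 days (103086.2 to 222725.9) and 14 days than at 0 hours (289865.5 to 475865.8). The part of RNA quality and of muscle content in the results that follow was not tested. In whole skin, fewer cells of a type and less RNA per cell cannot be told apart.

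For the fit, values under a floor (225.375, the pooled 25th percentile) were raised to it, because dim signals carry no order. Where an array of the lower group sits at the floor, a called fold is printed as a minimum ("at least"), and the log2 change beside it is a minimum in size too. An uncalled difference with arrays at the floor, such as those of Mmp9, Mmp11 and Timp2 at 2 hours, describes the floored values only. Arrays set to the floor add little or no spread. The standard error and p of a gene with such arrays may therefore be too small. Among the genes named below this concerns Mmp9, Mmp11, Timp2 and Adam8, and also Il1b, Tgfb1 and Tnc. Changes are on the log2 scale with the standard error of a limma fit of all 12 arrays, and a call means a limma p under 0.05 after Benjamini-Hochberg adjustment over 3477 tested genes. All 7 genes entered the test. The brightness filter asked for a signal over 475.55 on at least 3 arrays; Mmp11 passed it only through its 14 days arrays, Mmp9 and Timp2 only through 3 days and 14 days, and Adam8 through arrays after 0 hours, so that counts of calls over the 7 genes are a description.

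**Figure D1:**
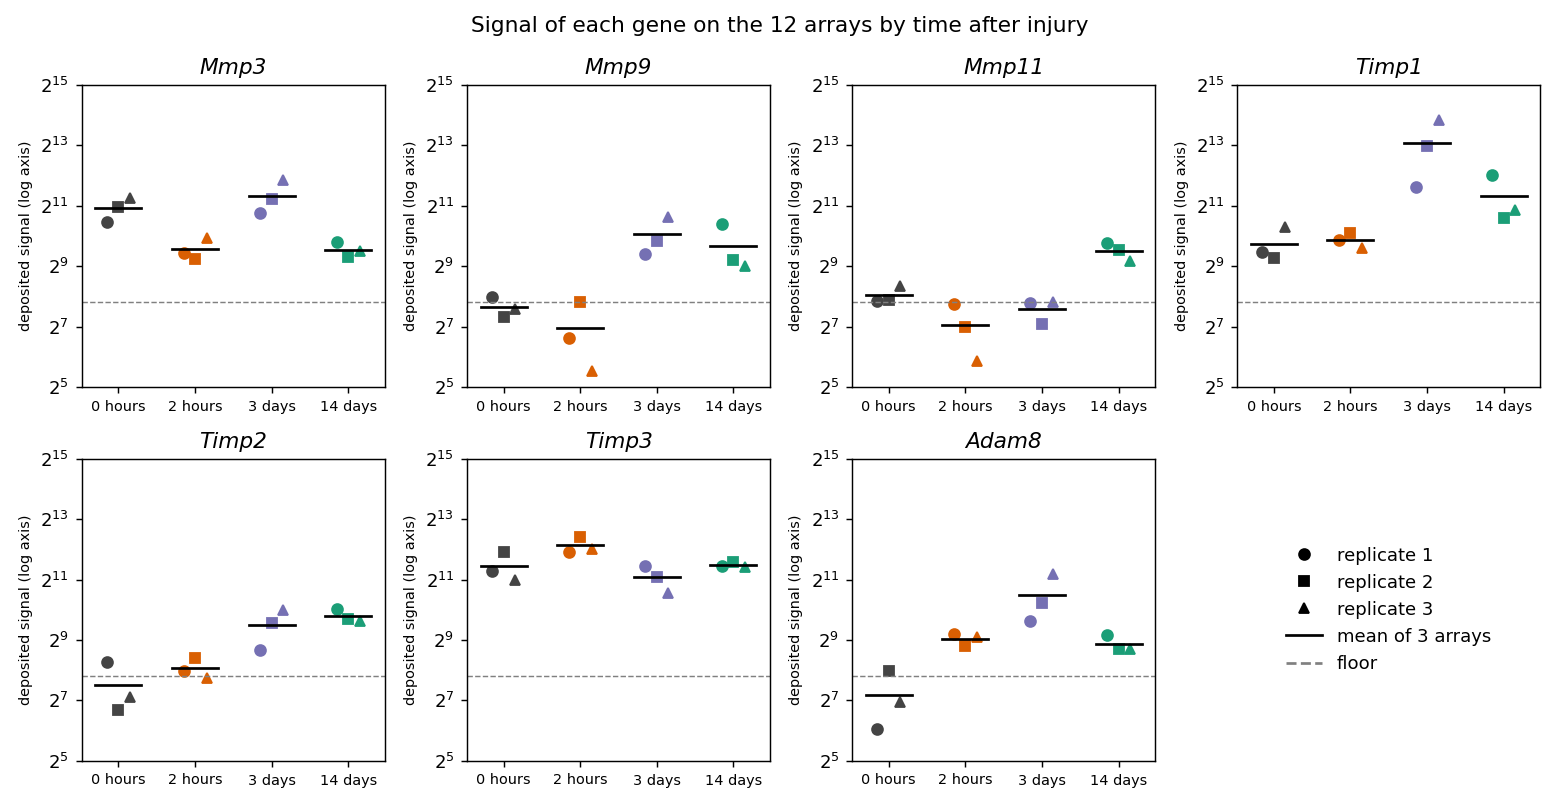
Deposited signal (vertical log axis) of the tested probe set of each gene on each of the 12 arrays, by time after injury; symbols mark the replicate, bars the mean of 3 arrays and the dashed line the floor of 225.375. Mmp3 was lower at 2 hours and 14 days than at 0 hours, Timp1 and Adam8 were highest at 3 days, and Mmp11 was above the floor on all 3 arrays only at 0 hours and 14 days.

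Mmp3 fell, returned and fell again. Its signal was 1406.1, 1982.8 and 2425.7 on the 3 arrays at 0 hours, 697.3, 598.1 and 970.5 at 2 hours, 1730.4, 2375.1 and 3676.0 at 3 days, and 885.6, 625.8 and 718.9 at 14 days. Every 2 hours and 14 days array was below every 0 hours and 3 days array. Mmp3 fell by 1.35 ± 0.29 at 2 hours (2.56-fold lower than at 0 hours, limma adjusted p = 0.014) and was 1.36 ± 0.29 lower at 14 days than at 0 hours, a decrease of 2.57-fold (limma adjusted p = 0.0096). Between these points it rose 3.34-fold from 2 hours to 3 days (1.74 ± 0.29, limma adjusted p = 0.0015) and fell by 1.75 ± 0.29 from 3 to 14 days (limma adjusted p = 0.0026). The order of levels was 3 days, 0 hours, 2 hours and 14 days. Its first pair of neighbours was not told apart (0.39 ± 0.29, limma adjusted p = 0.39), nor was the last, with a difference of -0.01 and a 95% interval of -0.62 to 0.61. The call at 2 hours was lost without 0 hours replicate 3, 2 hours replicate 1 or 2 hours replicate 2, with changes of -1.17, -1.31 and -1.2 and limma adjusted p of 0.060, 0.052 and 0.061, over a range of 0.0055 to 0.061 for all alternatives.

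Mmp9 was dim early and high late. The tested probe set gave 253.0, 159.7 and 192.3 at 0 hours and 98.9, 227.4 and 46.1 at 2 hours, at the floor on 2 of 3 arrays each time. It gave 684.5, 917.0 and 1580.9 at 3 days and 1354.5, 593.8 and 514.2 at 14 days, all above every early array. Mmp9 was at least 4.26-fold higher at 3 days than at 0 hours (2.09 ± 0.33, limma adjusted p = 0.00092) and at least 3.18-fold higher at 14 days (1.67 ± 0.33, limma adjusted p = 0.0080). Against 2 hours the increases were at least 2.14 ± 0.33 at 3 days and at least 1.72 ± 0.33 at 14 days. The values of 3 days and 14 days overlapped and were not told apart (-0.42 ± 0.33, limma adjusted p = 0.77), and 0 hours and 2 hours had no measurable order. A second probe set for Mmp9 stayed between 7.3 and 116.7 on all 12 arrays, under the floor throughout, and did not show the increase.

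Mmp11 was called against 0 hours at 14 days only. Its signals were 231.2, 234.9 and 327.6 at 0 hours, then 217.8, 125.9 and 57.9 at 2 hours and 218.5, 137.1 and 225.3 at 3 days, all 6 of these at the floor. At 14 days it read 867.9, 747.0 and 578.1, above every other array. The increase was 2.76-fold over 0 hours (1.47 ± 0.20, limma adjusted p = 0.00055) and at least 3.20-fold over 3 days (1.68 ± 0.20, limma adjusted p = 0.00022). Over 2 hours it was also at least 3.20-fold (limma adjusted p = 1e-04). From 0 hours to 2 hours and to 3 days Mmp11 was not called (-0.21 ± 0.20 in both, with all 3 later arrays at the floor, so that the size of any decrease is unknown, limma adjusted p = 0.56 and 0.50), and no fold between 2 hours and 3 days can be given. When any 1 array was left out, the filter was not redone, and Mmp11 stayed in the test. In these fits all its calls held, with changes of 1.33 to 1.63 against 0 hours. Mmp11 passed the filter only through its 3 arrays at 14 days. Without any of them it would miss the 3 arrays required, so these fits cannot show that its entry into the test is robust. The 6 arrays of Mmp11 at 2 hours and 3 days were all set to the floor and added no spread. Its standard error and p may therefore be too small.

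Timp1 rose from 0 hours to 3 days. It read 702.9, 624.1 and 1259.7 at 0 hours, 927.2, 1100.2 and 782.3 at 2 hours, 3131.8, 8117.7 and 14573.9 at 3 days, and 4188.5, 1559.4 and 1876.5 at 14 days. Both late groups lay above both early groups, in the order 3 days, 14 days, 2 hours and 0 hours, and the spread at 3 days was wide, with an SD of 66.6% of the mean. Timp1 rose 8.75-fold from 0 hours to 3 days (3.13 ± 0.47, limma adjusted p = 0.00065) and 7.74-fold from 2 hours to 3 days (2.95 ± 0.47, limma adjusted p = 0.0013). Without 3 days replicate 1, the lowest of its group, these changes were 3.73 and 3.55, and without 3 days replicate 3, the highest, 2.62 and 2.44. At 14 days its signal was 1.49 ± 0.47 above 0 hours and 1.64 ± 0.47 below 3 days, neither past the threshold (limma adjusted p = 0.059 and 0.085). Both differences were called in some subsets: the first without 0 hours replicate 3 (1.80, limma adjusted p = 0.047), 3 days replicate 1 (0.021) or 3 days replicate 3 (0.028), and the second without 3 days replicate 1 (-2.24, limma adjusted p = 0.0062) or 14 days replicate 1 (-2.07, 0.032). Over all alternatives the limma adjusted p ran from 0.021 to 0.23 for the first and from 0.0062 to 0.35 for the second. Against 2 hours, the 14 days level was 1.31 ± 0.47 higher (limma adjusted p = 0.081, range 0.027 to 0.32), called without 3 days replicate 1 (1.31, 0.031) or 3 (1.31, 0.041). At 2 hours Timp1 was not called (0.18 ± 0.47, 95% interval -0.83 to 1.18).

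Timp2 was called up at 3 days and 14 days. It read 307.6, 103.6 and 137.9 at 0 hours and 253.8, 339.1 and 212.9 at 2 hours, with 2 and 1 arrays at the floor. At 3 days it read 406.8, 758.8 and 1017.2, and at 14 days 1049.1, 832.9 and 788.9, all above the early arrays. The increase over 0 hours was at least 2.72-fold at 3 days (1.44 ± 0.29, limma adjusted p = 0.0050) and at least 3.53-fold at 14 days (1.82 ± 0.29, limma adjusted p = 0.0018). Over 2 hours it was at least 1.34 ± 0.29 at 3 days and at least 1.72 ± 0.29 at 14 days (limma adjusted p = 0.011 and 0.0019). The call of 3 days against 2 hours did not survive the omission of 2 hours replicate 3 (1.21, limma adjusted p = 0.059), 3 days replicate 2 (1.26, 0.051) or 3 days replicate 3 (1.05, 0.057), in a range of 0.00079 to 0.062 over all alternatives. The levels ran in the order 14 days, 3 days, 2 hours and 0 hours. The first and the last pair of neighbours were not told apart, with differences of 0.38 ± 0.29 and 0.10 ± 0.29 (limma adjusted p = 0.75 and 0.87).

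Timp3 was not called against 0 hours at any time point. It was bright on all arrays, at 2469.3, 3886.3 and 2020.2 at 0 hours, 3858.1, 5493.5 and 4082.5 at 2 hours, 2819.5, 2157.2 and 1509.3 at 3 days, and 2806.2, 3033.9 and 2711.6 at 14 days. Every 2 hours array was above every 3 days and 14 days array, and 0 hours overlapped with all. Its levels ran in the order 2 hours, 14 days, 0 hours and 3 days. The differences from 0 hours were 0.72 ± 0.27 at 2 hours, -0.36 ± 0.27 at 3 days and 0.08 ± 0.27 at 14 days (limma adjusted p = 0.13, 0.39 and 0.88). Without 0 hours replicate 2, the brightest of its group, the 2 hours difference was 0.99 and was called (limma adjusted p = 0.033, range 0.033 to 0.33). From 2 hours to 3 days Timp3 fell by 1.08 ± 0.27, or 2.11-fold (limma adjusted p = 0.021). That call ended when the fit omitted 2 hours replicate 2 (-0.92, limma adjusted p = 0.097), 2 hours replicate 3 (-1.14, 0.059), 3 days replicate 2 (-1.10, 0.065) or 3 days replicate 3 (-0.84, 0.12), with a range of 0.0093 to 0.12 over all alternatives.

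Adam8 was the only one of the 7 genes called up at 2 hours. It read 66.1, 251.2 and 122.5 at 0 hours, 2 of them at the floor, then 585.6, 447.3 and 547.2 at 2 hours, 793.3, 1191.8 and 2310.7 at 3 days, and 570.5, 419.2 and 415.4 at 14 days. The 3 days arrays were above all others and the 0 hours arrays below all others. Adam8 rose at least 2.24-fold by 2 hours (1.16 ± 0.30, limma adjusted p = 0.036) and at least 5.55-fold by 3 days (2.47 ± 0.30, limma adjusted p = 0.00023). It rose 2.48-fold from 2 hours to 3 days (1.31 ± 0.30, limma adjusted p = 0.014) and fell by 1.49 ± 0.30, or 2.80-fold, from 3 to 14 days (limma adjusted p = 0.011). At 14 days it was still at least 1.98-fold above 0 hours, close to the threshold (0.99 ± 0.30, limma adjusted p = 0.049), and not told apart from 2 hours (-0.18 ± 0.30).

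The increase of Adam8 at 3 days over 0 hours was called in all 22 alternatives tried, while each of its other calls was lost in several. At 2 hours the call was lost without 0 hours replicate 1 or 3, any 2 hours replicate, 3 days replicate 2 or 14 days replicate 2, with changes of 1.08 to 1.28 and limma adjusted p of 0.051 to 0.12, within 0.0048 to 0.29 over all alternatives. With the replicate number as a block its limma adjusted p was 0.052 at 2 hours and 0.063 at 14 days. The 14 days call was lost in 15 of 22 alternatives, among them the omission of any array but 3 days replicates 1 and 3 (0.84 to 1.07, limma adjusted p of 0.060 to 0.18, within 0.0094 to 0.45 over all alternatives). Quantile normalization (0.93, limma adjusted p = 0.060) and median scaling (0.95, limma adjusted p = 0.056) ended it too. The 3 days against 2 hours call ended when 2 hours replicate 2 was omitted (1.2, limma adjusted p = 0.068) or 3 days replicate 3 (0.89, 0.055), in a range of 0.0016 to 0.074. That of 14 days against 3 days ended without 14 days replicate 2 or 3 (-1.41 in both, limma adjusted p = 0.060 and 0.052, range 0.0015 to 0.079).

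**Figure D2:**
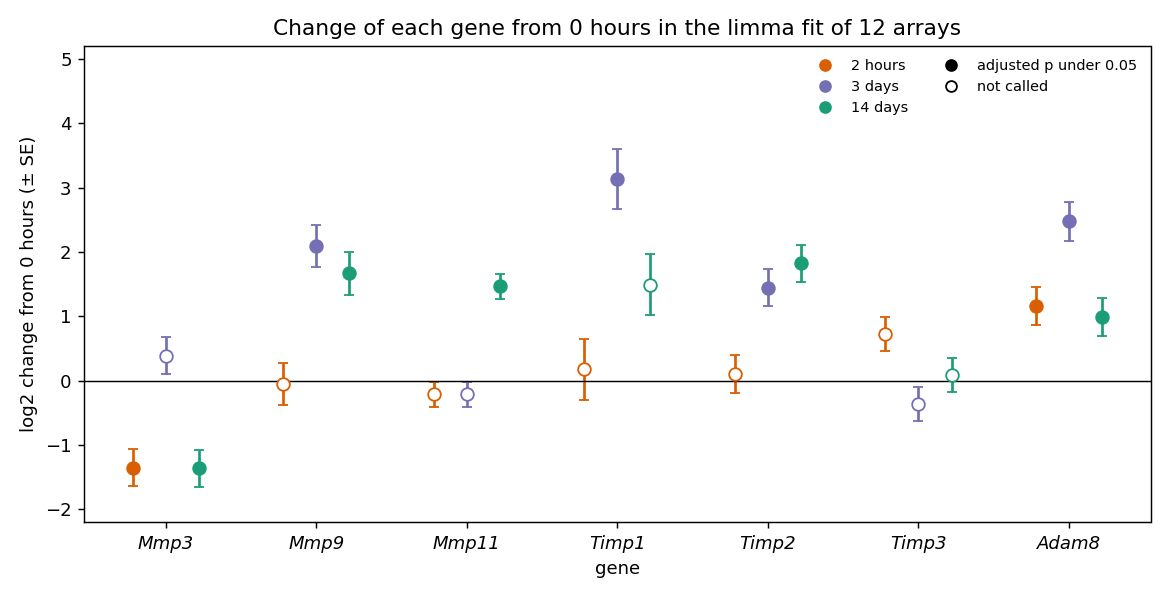
Log2 change of each gene from 0 hours at 2 hours, 3 days and 14 days (vertical axis, points with the standard error of the limma fit of 12 arrays); filled points passed an adjusted p under 0.05. Increases of Mmp9, Timp2 and Adam8 are minimums, because arrays at 0 hours were at the floor. At 3 days Timp1 was at 3.13 and Adam8 at 2.47 or more, and Mmp3 was at -1.35 at 2 hours and -1.36 at 14 days.

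At 2 hours Adam8 rose and Mmp3 fell, with 5 of 7 genes not called. Of all tested genes, limma called 5.64% at 2 hours, 3.97% up and 1.67% down, and 23.4% had groups that did not overlap, as did 3 of the 7. Mmp11 was among these 3, with all its 2 hours arrays at the floor. At 3 days Mmp9, Timp1, Timp2 and Adam8 rose over 0 hours and 3 genes were not called. Of all tested genes 13.3% were called at 3 days, 8.89% up and 4.40% down, and 28.6% did not overlap, as did 5 of the 7. Mmp11 was among these 5, with all its 3 days arrays at the floor. At 14 days Mmp9, Mmp11, Timp2 and Adam8 were called up and Mmp3 down. Of all tested genes 10.1% were called at 14 days, 6.90% up and 3.22% down, and 29.2% did not overlap, as did 6 of the 7. The median log2 change of the 7 genes was 0.10, 1.44 and 1.47 at the 3 time points, against 0.05, 0.02 and 0.05 over all tested genes. These comparisons share the 0 hours arrays. The filter admitted Mmp9, Mmp11, Timp2 and Adam8 only through arrays after 0 hours, so that a higher later level was partly built in. Counts, shares without overlap and medians of the 7 genes, here and between later time points, are therefore descriptions.

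Between later time points the calls ran in both directions. From 2 hours to 3 days Mmp3, Mmp9, Timp1, Timp2 and Adam8 rose and Timp3 fell, where 9.40% of tested genes were called, 6.10% up and 3.31% down. Groups did not overlap for 6 of the 7 genes and 35.2% of all. From 3 to 14 days Mmp11 rose, Mmp3 and Adam8 fell and 4 genes were not called, where 3.39% of tested genes were called, 1.29% up and 2.10% down. Groups did not overlap for 3 of the 7 and 19.7% of all. From 2 hours to 14 days Mmp9, Mmp11 and Timp2 rose and 4 were not called, where 12.2% of tested genes were called, 6.84% up and 5.38% down. Groups did not overlap for 5 of the 7 and 39.7% of all.

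At 3 days and at 14 days, most of the 7 genes varied together across replicates. At 0 hours and 2 hours the brightest replicate differed between genes, and Mmp11 was at the floor on all 3 days arrays. Among the 3 days arrays, replicate 3 had the highest and replicate 1 the lowest signal of Mmp3, Mmp9, Timp1, Timp2 and Adam8, and Timp3 had the reverse, 1509.3 on replicate 3 and 2819.5 on replicate 1. The summed signal of 7 neutrophil markers was 6945.4, 16860.5 and 27480.0 on replicates 1, 2 and 3 at 3 days, and that of 14 macrophage markers 42105.2, 52687.5 and 64558.5, in the same order as those 5 genes. The fibroblast sum (81632.5, 90980.3 and 102843.0) and the endothelial sum (5564.4, 5905.2 and 6037.9) were in that order too. The keratinocyte and mast cell sums were not. The muscle sum was in the order of Timp3, at 222725.9, 189149.3 and 103086.2. Among the 14 days arrays, replicate 1 had the highest signal of every gene but Timp3, and its neutrophil sum was 9250.4 against 1629.9 and 2062.1 on replicates 2 and 3. The fibroblast and keratinocyte sums were also highest on replicate 1, and the macrophage, endothelial, mast cell and muscle sums were not. The part of these markers in the changes of the 7 genes was not tested.

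**Figure D3:**
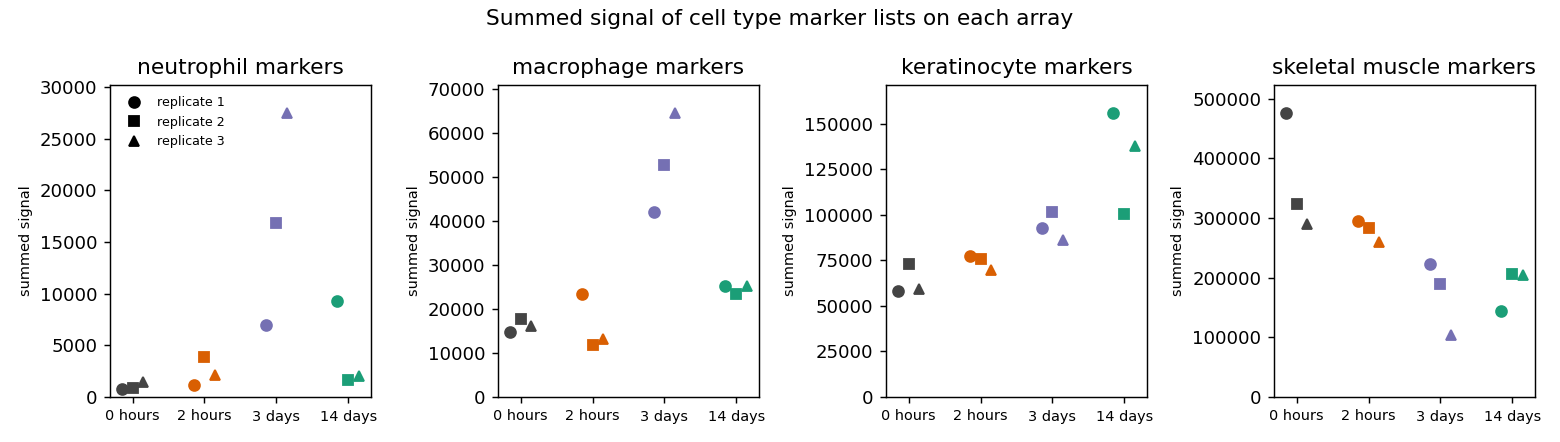
Summed deposited signal (linear axes from 0) of marker lists of neutrophils (7 genes), macrophages (14), keratinocytes (10) and skeletal muscle (15) on each array, by time after injury, with symbols for the replicate. On average, neutrophil and macrophage sums were highest at 3 days, where replicate 3 was the highest array, and muscle sums at 0 hours.

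The marker lists moved with the time points as well. The neutrophil sum ran from 806.7 to 1448.2 at 0 hours and 1107.5 to 3829.2 at 2 hours. Later it ran from 6945.4 to 27480.0 on the 3 days arrays and 1629.9 to 9250.4 on the 14 days arrays. At 3 days most of it came from S100a8 and S100a9, with mean signals of 10373.1 and 4674.0. Both are calcium-binding proteins also made by wound keratinocytes. Cxcr2, Csf3r, Itgam and Lcn2 were at the floor on all arrays of 0 hours, 2 hours and 14 days. Elane did not rise with the sum, at mean signals of 357.4, 322.3, 255.2 and 336.0 at the 4 time points in order. The macrophage sum was 14809.5 to 17749.5 at 0 hours and 42105.2 to 64558.5 at 3 days, and all 12 tested macrophage markers rose at 3 days. At 2 hours, when Adam8 rose, none of the 12 macrophage markers and neither of the 2 tested neutrophil markers was called, while 1 of 4 mast cell markers (Cma1) and 1 of 9 keratinocyte markers (Krt6a) rose. At 14 days, when Mmp11 rose, 5 of 9 tested keratinocyte markers and 3 of 10 fibroblast markers rose, with a keratinocyte sum of 100197.4 to 155602.4 against 58160.7 to 73083.2 at 0 hours. The fibroblast sum did not rise with them, at 100218.3 to 133888.9 against 123359.7 to 137094.1 at 0 hours, and the other 7 fibroblast markers were not called. Of all tested genes, 3.97%, 8.89% and 6.90% were called up at 2 hours, 3 days and 14 days against 0 hours. A link of these markers to Adam8 or Mmp11 was not tested.

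The remaining metalloproteinases on the array were few. Of 3 other Mmp genes with a probe set 2 were tested, and neither was called against 0 hours. Mmp12, the macrophage elastase and a chromosomal neighbour of Mmp3, read 221.1, 3537.1 and 757.0 at 0 hours and 145.1, 280.1 and 346.4 at 2 hours, then 1203.0, 597.1 and 1969.2 at 3 days and 3027.8, 5547.6 and 3909.5 at 14 days. Its 0 hours arrays overlapped with every other time point. At 14 days Mmp12 was 2.255 ± 0.692 above 0 hours, not past the threshold (limma adjusted p = 0.052). Mmp12 rose at least 14.4-fold from 2 to 14 days (3.85 ± 0.69, limma adjusted p = 0.0030), and its other probe set was also brightest on average at 14 days (970.4, 1145.5 and 873.8). Mmp14, the membrane-type activator of proMmp2, rose by 1.28 ± 0.34 from 2 to 14 days (limma adjusted p = 0.024). It was no longer called when the fit omitted 2 hours replicate 1 (1.28, limma adjusted p = 0.057) or 2 (1.12, 0.10) or 14 days replicate 1 (1.08, 0.11) or 2 (1.34, 0.058). Mmp13, the rodent interstitial collagenase, was too dim to be tested, at 359.7, 324.3 and 444.4 at 3 days and at the floor on all 0 hours and 2 hours arrays.

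Of 5 tested genes for other Adam, Adamts and astacin enzymes, Adam9 rose at 3 days over 0 hours (0.92 ± 0.23, limma adjusted p = 0.016) and 4 were not called, and none was called at 2 hours or 14 days against 0 hours. Adam9 was not called when 3 days replicate 3 was omitted (0.81, limma adjusted p = 0.084). Of 7 regulators and binding partners of metalloproteinases, Reck, a membrane-anchored inhibitor of several of them, rose at 2 hours (1.44 ± 0.30, limma adjusted p = 0.011; 1.27 and 0.069 without 2 hours replicate 3). Reck read 295.7, 431.7 and 718.5 at 0 hours and 1029.4, 1150.7 and 1554.3 at 2 hours, with no overlap. Thbs2, a matricellular protein that binds Mmp2 for clearance, rose 3.66-fold at 14 days over 0 hours (1.87 ± 0.28, limma adjusted p = 0.0015). Plasmin activates metalloproteinase proenzymes. Of 4 tested genes of plasminogen activation, Serpinb2 and S100a10 rose at 2 hours, Serpinb2 rose at 3 days and none was called at 14 days, all against 0 hours. Serpinb2, an inhibitor of urokinase, had a change of 1.17 ± 0.29 at 2 hours (limma adjusted p = 0.033), lost without 0 hours replicate 1 or 3 or any 2 hours replicate (1.03 to 1.22, limma adjusted p of 0.087 to 0.095). Its 3 days call ended without 3 days replicate 3 (0.62, limma adjusted p = 0.15) or 0 hours replicate 1 or 3 (0.89 and 0.97). S100a10 lost its call without 0 hours replicate 1 or 3 or 2 hours replicate 1 or 3 (0.63 to 0.85, limma adjusted p of 0.063 to 0.15). From 2 to 14 days, Serpinb2 fell by 1.55 ± 0.29 (limma adjusted p = 0.0042).

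**Figure D4:**
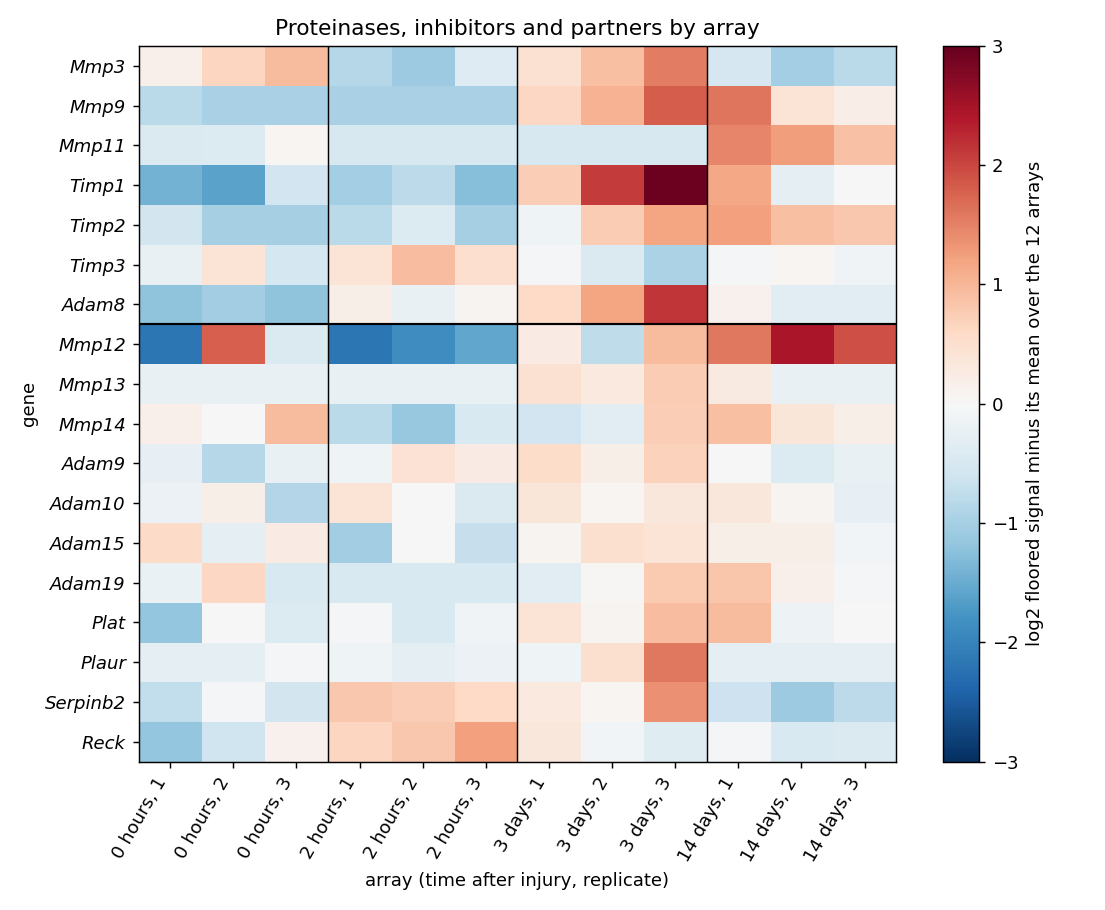
Log2 floored signal of each gene (rows) on each array (columns, by time after injury and replicate), minus the mean of that gene over the 12 arrays; the horizontal line parts the 7 genes from other proteinases, inhibitors and partners. On average, Mmp12 and Mmp11 were highest at 14 days, and Reck and Timp3 at 2 hours.

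Known inducers were taken from a list of cytokines and of AP-1 and Ets factors. Of 6 tested cytokines and receptors, Osmr rose at 2 hours, Il1b, Osmr and Tgfb1 at 3 days and Tgfb1 at 14 days over 0 hours, and none fell. The 14 days call of Tgfb1 (at least 1.26) held only when the omitted array was 3 days replicate 1 or 3, and otherwise had a limma adjusted p of 0.054 to 0.13. At 3 days Tgfb1 (at least 1.64) was at 2.27 without 3 days replicate 1 and not called without 3 days replicate 3 (1.2, limma adjusted p = 0.055). Osmr at 3 days (0.98) was not called without 0 hours replicate 1 or 3 days replicate 3 (0.77 in both, limma adjusted p = 0.076 and 0.11). Osmr, the oncostatin M receptor, rose at 2 hours (1.49 ± 0.25, limma adjusted p = 0.0029). Il1b, the interleukin 1 beta gene, was at the floor on all 0 hours arrays and read 744.2, 1859.6 and 5595.0 at 3 days, an increase of at least 8.78-fold (3.13 ± 0.48, limma adjusted p = 0.00068). Without 3 days replicate 1 its change was 3.84, and without 3 days replicate 3 it was 2.38. Of 6 tested AP-1 and Ets genes, 1 rose at 2 hours (Ets2), and at 3 days Junb rose and Fos fell, the last pair with overlapping groups. Ets2 (0.84) was not called without 0 hours replicate 1 or 3, any 2 hours replicate or 3 days replicate 2 (0.76 to 0.88, limma adjusted p of 0.054 to 0.14). Junb (1.33) was not called without 0 hours replicate 1 or 2, 2 hours replicate 3, 3 days replicate 2 or 3, or any 14 days replicate (0.86 to 1.33, limma adjusted p of 0.052 to 0.21). Fos at 3 days (-2.04) was at -2.67 without 0 hours replicate 2 and not called without 0 hours replicate 1 or 3 or 3 days replicate 1 or 2 (-1.44 without the first, limma adjusted p of 0.075 to 0.13). Fos, a component of AP-1, was lower at 14 days than at 0 hours (-3.45 ± 0.59, limma adjusted p = 0.0026; -2.86 without 0 hours replicate 1 and -4.08 without 0 hours replicate 2), and the other 5 were not called at 14 days. Among 16 tested matrix substrates, Col1a1, Col1a2, Col3a1 and Sparc fell at 2 hours and none rose. At 3 days Lama3 and Tnc rose and Col1a1, Col1a2 and Sparc fell, and at 14 days Bgn, Vcan and Tnc rose and Sparc fell, all against 0 hours. Col3a1 at 2 hours (-0.87) was not called without 0 hours replicate 1 or 3, any 2 hours replicate, 3 days replicate 2 or 14 days replicate 2 or 3 (limma adjusted p of 0.052 to 0.12). Lama3 was not called without 0 hours replicate 1 or 3 days replicate 3 (limma adjusted p = 0.055 and 0.053). At 14 days Bgn (0.87) was called only when the omitted array was 0 hours replicate 3, 3 days replicate 3 or 14 days replicate 3, with a limma adjusted p of 0.051 to 0.19 for the others. Vcan at 14 days was not called without 0 hours replicate 1 or 14 days replicate 1 (limma adjusted p = 0.051 and 0.055), nor Sparc without 0 hours replicate 1 or 3 or any 14 days replicate (limma adjusted p of 0.064 to 0.11). Tnc at 14 days was at least 2.5, and 1.89 without 14 days replicate 1.

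The 3 genes whose log2 floored signals followed each of the 7 most closely were named by Pearson's r over the 12 arrays among 3470 other tested genes. The arrays share time points, and several of these genes are at the floor on some arrays, so r describes likeness only. Mmp9 was closest to Tnc (0.991), the wound matrix protein tenascin C, Sprr2i (0.966) and Krt6b (0.961), both genes of families with near-identical members. Tnc had mean signals of 130.1, 144.8, 2662.5 and 1579.8 at the 4 time points in order, and so was low on the early arrays and high on the late ones, as was Mmp9. Mmp11 was closest to Ptch1 (0.973), the hedgehog receptor, Col6a1 (0.927) and Krt71 (0.909), a keratin of the hair follicle inner root sheath. Krt71 had a mean signal of 12552.0 at 14 days against 1160.8 at 0 hours and 83.7 and 140.2 at 2 hours and 3 days.

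Timp1 was closest to C3ar1 (0.961), the C3a receptor, Slpi (0.931), a leukocyte proteinase inhibitor, and Ninj1 (0.927). Adam8 was closest to Lilr4b (0.973), a leukocyte inhibitory receptor, Tnfrsf1b (0.968), a tumour necrosis factor receptor, and Apbb1ip (0.956). Lilr4b had mean signals of 422.6, 717.1, 2173.6 and 676.4 at the 4 time points in order, highest at 3 days as was Adam8. For Timp2 the genes were Pdia6 (0.978), Crabp1 (0.954) and Cdk1 (0.952), the mitotic kinase, for Timp3 Ube2d3 (0.944), Cript (0.936) and Dock9 (0.935), and for Mmp3 P2rx4 (0.889), Rab11fip5 (0.808) and Syk (0.788). Among the 7 genes themselves the closest pairs were Mmp9 with Timp1 (0.923) and Mmp9 with Timp2 (0.914), and Mmp3 with Timp3 was the most opposed (-0.723).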

How the data were processed

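RNA of 12 mouse skin samples had been read on 1 Affymetrix array each. The deposited signal is an intensity on a linear scale; how the authors scaled it or chose probe sets is not given in the sources used here. Time points and replicate numbers were taken from the labels' titles. Leaving out 27 control probe sets, 6551 of 7275 named 1 gene in GEO's platform annotation, 251 named several and 446 none; the last 2 kinds were not tested.

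No array was rescaled. Intensity was floored (225.375), log2-transformed, filtered (above the pooled median of 475.55 on at least 3 arrays) and reduced to the brightest probe set of each of 3477 genes. limma 3.58.1 under R 4.3.3 fitted a mean for every time point over the 12 arrays (8 residual degrees of freedom, 6.63 prior), with Benjamini-Hochberg adjustment within each comparison. With 3 arrays a group, the smallest p of an exact permutation test is 0.1. The scripts were tested on simulated data. Plots used Python 3.11.15, pandas 2.3.3 and matplotlib 3.10.9.

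The 7 genes and all gene lists were chosen with earlier results of these data known. Named besides the 7 were called genes of the pathway lists (at most 4 per list and comparison, by smallest p), the 3 genes closest to each of the 7 by correlation, and the 4 brightest of each marker list. Mmp13 was named after its values were seen. Alternatives covered normalization, floor, filter, choice of probe set, variance model, the samples in the fit and a replicate block. Fits with an array left out kept the same 3477 genes, because the filter was not redone. The shared replicate numbers do not pair arrays: deviations from the group means correlated above 0.1 in 2 of 18 pairs with equal numbers (median -0.0663).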

Additional observations from a re-analysis of the deposited data

How the results depend on the processing

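Of 920 alternative values for single genes, 855 kept direction and side of the threshold, 48 lost a call, 10 gained one and 7 had the other sign, all 7 in differences that were not called. Settings in which a gene left the test gave no value, nor did Mmp11 for 3 days against 2 hours. The number of the 7 genes called at 2 hours was 2. It was 1 with a floor at the 40th percentile, 0 without the filter, 1 with a filter at the 75th percentile, 1 with the replicate block and 1 with only the 2 time points compared, and ran from 0 to 3 when 1 array was left out. With the filter at the 75th percentile, which left only Mmp3, Timp1 and Timp3 of the 7 in the test, the count at 3 days fell from 4 to 1 and at 14 days from 5 to 1. It fell there from 6 to 3 for 3 days against 2 hours, from 3 to 1 for 14 days against 3 days, and from 3 to 0 for 14 days against 2 hours. The floor at the 40th percentile gave 3 at 14 days, and no filter gave 3 for 3 days against 2 hours. With only the 2 time points compared, 5 genes were called for 14 days against 2 hours. Leaving out 1 array gave 3 to 6 calls for 3 days against 2 hours, the 3 without 3 days replicate 3. The background moved as well. Over all tested genes, calls against 0 hours numbered 196 at 2 hours, 462 at 3 days and 352 at 14 days, and 63, 216 and 153 with only the 2 time points compared. With 1 array left out they ran from 72 (2 hours replicate 3) to 316 (0 hours replicate 2) at 2 hours, 178 (3 days replicate 3) to 558 (0 hours replicate 2) at 3 days, and 119 (14 days replicate 1) to 486 (0 hours replicate 2) at 14 days. For 3 days against 2 hours the count was 327 (112 to 409), for 14 days against 3 days 118 (59 to 127) and for 14 days against 2 hours 425 (180 to 537, and 674 with only the 2 time points compared). Without the filter the 6 counts, in this order, were 142, 294, 241, 174, 63 and 268. The cause of these shifts was not tested.

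With 1 array left out, changes at 2 hours ran from -0.02 to 0.49 for Timp1 and -0.06 to 0.25 for Timp2. For Mmp9, near the floor in both groups, they ran from -0.08 to 0.00, and the last of these, without 0 hours replicate 1, is no measured change of direction. They ran from -0.12 to 0.35 for Timp3 at 14 days against 0 hours, and from -0.16 to 0.19 for Mmp3 at 14 days against 2 hours. The replicate block ended the calls of Adam8 at 2 hours and 14 days (1.16 and 0.99, limma adjusted p = 0.052 and 0.063) and changed no other call of the 7 genes. Levels of Mmp9, Mmp11, Timp2 and Adam8 near the floor limit what their early arrays can show.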
